A study of Mus musculus with 9 samples.

Results

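The genes described here make nucleotides and the folate-bound carbon units that nucleotide synthesis uses. They were chosen by name: 39 genes were listed, all 39 had a row in the deposited count table, and 38 of them were also in the deposited log2 CPM table (CPM, counts scaled to the library's total), out of 12849 genes in both tables and 55536 in the count table. The 39 comprise 9 genes of serine synthesis and the folate cycle, 10 of deoxynucleotide synthesis, 6 of pyrimidine synthesis and 14 of purine synthesis and salvage. Mthfd2l, of the folate cycle, is the gene missing from the log2 table. The libraries are RNA-seq of mouse spleen B cells labelled pre-GC, a stage named as before the germinal centre, from 5 p52Ki and 4 wild-type (WT) samples. The p52Ki samples are titled p52ki/ki, that is, with a knock-in allele on both chromosomes; p52 is a subunit of NF-kB transcription factors encoded by Nfkb2. The sources used here do not give strain, age, sex, immunisation, the gate used to sort the cells or the sequence of the knocked-in allele. Nothing in the labels ties the replicates to different mice, so each p-value reflects the spread among the samples sequenced, part of which may be technical.

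Cells obtain nucleotides by building purine and pyrimidine rings from small molecules, or by salvaging bases and nucleosides. Ribonucleotide reductase then turns ribonucleotides into the deoxynucleotides of DNA, and thymidylate synthase adds the methyl group of thymine with a carbon carried by folate. Serine, made from a glycolytic intermediate or taken up, is the main donor of that carbon. Dividing lymphocytes raise many of these enzymes, and several of them are targets of drugs that block lymphocyte proliferation. Germinal centre B cells are among the fastest dividing cells of the mouse.

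Total counts assigned to genes were 4492160 to 6647650 in p52Ki and 7368604 to 7937579 in WT, and 15504 to 16634 genes in p52Ki and 14033 to 14793 in WT had at least 1 count. The genotypes did not overlap in either measure (exact two-sided permutation p = 0.0159 and 0.00794, the second of them the smallest that 126 splits allow, both 0.0159 after adjustment over the 2 measures). All 6 B cell markers examined were expressed, with summed levels of 11010.2 to 14479.9 CPM in p52Ki and 9689 to 10927 CPM in WT. Of the 6, Cd79a rose. The 7 T cell markers other than Lck, which B cells can also express, summed to at most 19.2 CPM in p52Ki and 8.53 CPM in WT, and Lck stood at 76.9 to 184 CPM in p52Ki and 187 to 248 CPM in WT. Myeloid markers summed to 56.2 to 148 CPM in p52Ki and 14.3 to 70.1 CPM in WT over 8 genes, with S100a8 and S100a9 at 0 in every library. Plasma cell markers summed to 722 to 1321 CPM in p52Ki and 1505 to 1969 CPM in WT over 6 genes, of which Jchain fell. Sdc1, another of the 6, was at 6.74 to 37.9 CPM in p52Ki and 0 to 4.84 CPM in WT and did not pass. It met the filter on low counts through p52Ki, so its values are a description with no p. The 6 stromal and endothelial markers summed to 114 to 265 CPM in p52Ki and 39.2 to 107 CPM in WT, of which Pecam1 rose and Col1a1, Col1a2 and Col3a1 were at 0 in every library. The NK cell and erythroid lists each summed to at most 24.1 CPM in any library. The part of depth or of other cells in the results that follow was not tested. Nfkb2 averaged 208 ± 40.9 CPM in p52Ki and 136 ± 34 CPM in WT (SD, n = 5 and 4) and missed the threshold (edgeR adjusted p = 0.0987). Counts per gene cannot separate the knocked-in allele from others.

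Of the 38 genes tested, 8 fell and 1 rose in p52Ki (edgeR quasi-likelihood test, Benjamini-Hochberg adjusted p under 0.05 over all 12849 genes tested). The 8 that fell are Rrm1, Rrm2 and Dck of deoxynucleotide supply, Cmpk1 and Umps of pyrimidine synthesis, Paics and Impdh2 of purine synthesis, and Psat1 of serine synthesis. The 1 that rose is Tk2, the mitochondrial thymidine kinase. Falls made up 21.1% of the 38 genes, against 4.04% of all genes tested, and rises 2.63%, against 4.49%, with 8.53% of all genes tested called in either direction. The median log2 fold change was -0.44 over the 38 genes and 0.03 over all genes tested, and 29 of the 38 had a fold change below 0, as had 48.2% of all genes. For 12 of the 38 the genotypes did not overlap, with p52Ki lower in 11 (28.9%, against 6.53% of all genes tested) and higher in 1 (2.63%, against 7.3%). Besides the 8 that fell, Mthfd2, Mthfd1l and Gmps lay wholly below WT without passing the test. With 1 library left out, the number called lower was 5 when that library was p52Ki replicate 1, 3 or 5, and 7 when it was p52Ki replicate 2 or 4. It was 4 without WT replicate 1, 5 when WT replicate 2 or WT replicate 4 was missing, and 7 without WT replicate 3. Tk2 was called higher each time. In bulk RNA, fewer cells of a type and less RNA per cell cannot be told apart.

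**Figure D1:**
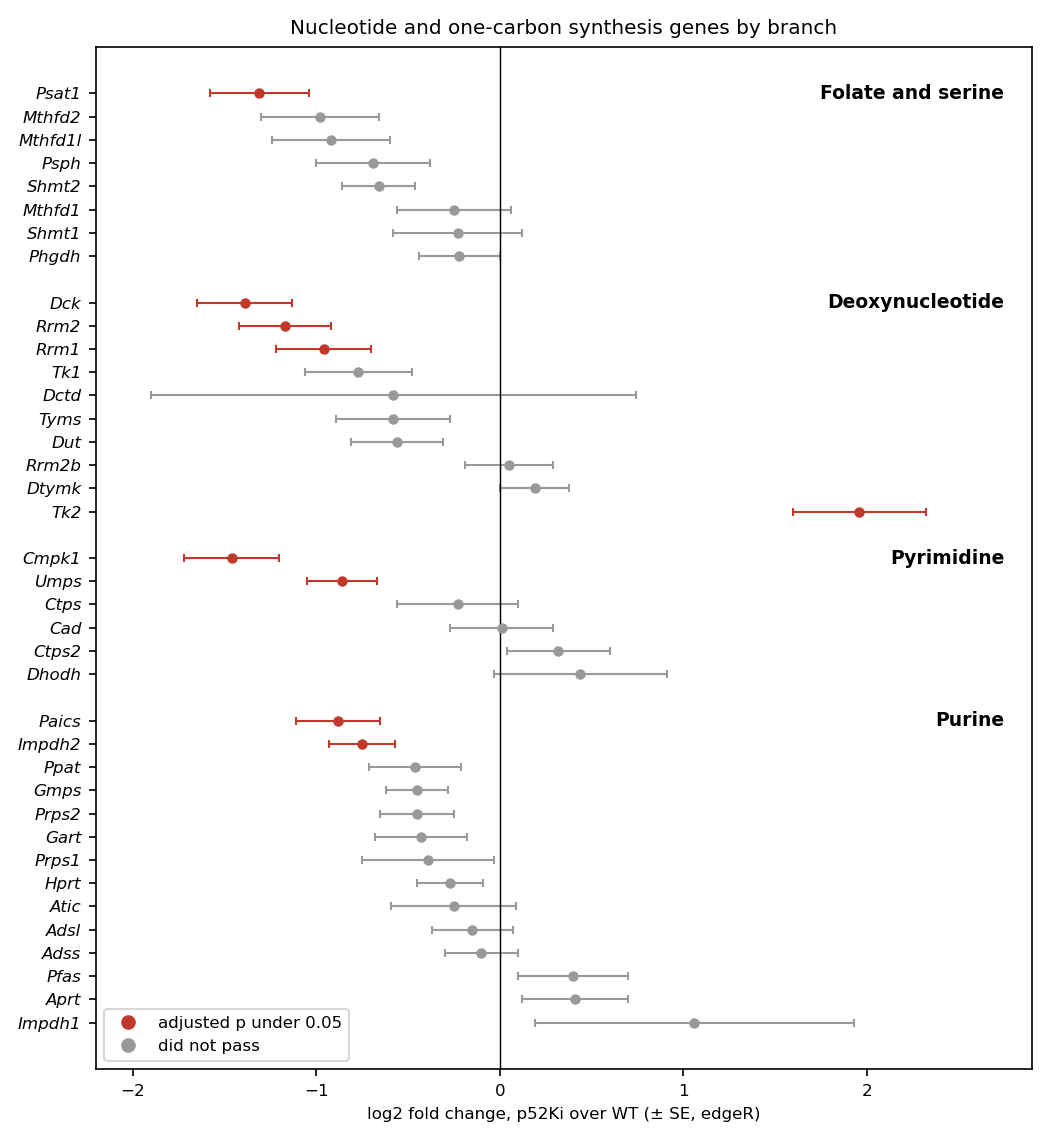
Log2 fold change, p52Ki over WT, of the 38 genes tested, with its SE as a horizontal bar and genes sorted within each branch. Red points passed the threshold and grey points did not. Points left of the line at 0 are lower in p52Ki, and Tk2 at 1.96 is the red point on the right.

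In the deoxynucleotide branch 3 of 10 genes fell (30%, against 4.04% of all genes tested) and 1 rose (10%, against 4.49%). The branch's median log2 fold change was -0.58. Both obligate partners of the S phase form of ribonucleotide reductase fell together, the larger catalytic subunit Rrm1 and the smaller subunit Rrm2, and so did Dck, the kinase that salvages deoxycytidine. The 250 bases upstream of the RefSeq start of Rrm1 (chr7:102441445-102441694 on the plus strand), Rrm2 (chr12:24708004-24708253 on the plus strand) and Tk2 (chr8:104248559-104248808 on the minus strand) are shown, GRCm38.p6, 5′ to 3′ along the gene, because the first 2 encode subunits that fell together and the third is the only gene of the set that rose. Capitals mark the letters CCAAT, a box found in many promoters of dividing cells, and CCGGAAG, a core bound by ETS factors, on either strand.
Rrm1: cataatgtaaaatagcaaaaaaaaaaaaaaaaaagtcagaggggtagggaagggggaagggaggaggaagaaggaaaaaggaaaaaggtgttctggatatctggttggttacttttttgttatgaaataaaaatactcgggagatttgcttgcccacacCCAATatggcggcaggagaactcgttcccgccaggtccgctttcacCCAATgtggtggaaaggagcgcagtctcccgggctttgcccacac
Rrm2: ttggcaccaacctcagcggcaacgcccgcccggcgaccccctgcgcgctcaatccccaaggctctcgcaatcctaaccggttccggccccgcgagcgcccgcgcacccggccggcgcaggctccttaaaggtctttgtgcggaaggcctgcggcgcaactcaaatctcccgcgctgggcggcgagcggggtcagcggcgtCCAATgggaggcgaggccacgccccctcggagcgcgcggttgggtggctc
Tk2: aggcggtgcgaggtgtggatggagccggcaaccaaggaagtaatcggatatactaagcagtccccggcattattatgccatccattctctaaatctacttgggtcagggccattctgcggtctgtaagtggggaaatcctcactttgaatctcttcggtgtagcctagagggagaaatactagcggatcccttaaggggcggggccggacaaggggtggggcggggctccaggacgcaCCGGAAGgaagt

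Rrm2 (chromosome 12, 24708241 to 24714146 in GRCm38, with this and all gene positions from GENCODE M21) stood at 178, 389, 256, 474 and 257 CPM in p52Ki replicates 1 to 5, against 803, 638, 606 and 746 CPM in WT replicates 1 to 4. Every p52Ki library lay below every WT library, and p52Ki replicate 4 was the nearest to them. The means were 311 ± 118 CPM in p52Ki and 698 ± 92.1 CPM in WT (SD, n = 5 and 4, as for all means that follow), a log2 fold change of -1.17 ± 0.25 (SE, edgeR adjusted p = 0.0152). Rrm1 (chromosome 7, 102441695 to 102469771) stood at 199, 345, 230.4, 496 and 212 CPM in p52Ki replicates 1 to 5, against 705, 529, 577 and 497 CPM in WT replicates 1 to 4. The genotypes did not overlap, but p52Ki replicate 4 came close to the lowest WT library. The means were 297 ± 126 CPM in p52Ki and 577 ± 91.5 CPM in WT, a log2 fold change of -0.96 ± 0.26 (edgeR adjusted p = 0.0394). That call was kept only without p52Ki replicate 4 and ended in the other 8 fits without 1 library (adjusted p 0.00436 to 0.103 over the 9 fits). Rrm2b, the alternative small subunit that p53 induces for repair and mitochondrial DNA, was at 135, 84.7, 147, 72.8 and 75.6 CPM in p52Ki replicates 1 to 5, against 105, 98.1, 86.6 and 109 CPM in WT replicates 1 to 4. The p52Ki values lay on both sides of the WT range, and the log2 fold change was 0.05 ± 0.24 (edgeR adjusted p = 0.945).

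Dck (chromosome 5, 88764996 to 88783281) stood at 113, 106, 145, 245 and 88.6 CPM in p52Ki replicates 1 to 5, against 386, 302, 363 and 409 CPM in WT replicates 1 to 4. All p52Ki libraries lay below all WT libraries, again with p52Ki replicate 4 the highest of its group. The means were 139 ± 62.3 CPM in p52Ki and 365 ± 45.8 CPM in WT, 2.62-fold lower in p52Ki (log2 fold change -1.39 ± 0.26, edgeR adjusted p = 0.00956). Tk2 (chromosome 8, 104226685 to 104248558), which phosphorylates thymidine and deoxycytidine in mitochondria, stood at 111, 62.6, 109, 72.8 and 113 CPM in p52Ki replicates 1 to 5, against 16.9, 41.6, 12.2 and 25.4 CPM in WT replicates 1 to 4. Every p52Ki library lay above every WT library, of which replicate 2 was the highest. The means were 93.7 ± 24.1 CPM in p52Ki and 24 ± 12.9 CPM in WT, a log2 fold change of 1.96 ± 0.36 (edgeR adjusted p = 0.00841). Its cytosolic counterpart Tk1, which is made in S phase, was at 54.4, 122, 58.9, 124 and 90.6 CPM in p52Ki replicates 1 to 5, against 163, 103, 129 and 216 CPM in WT replicates 1 to 4. The genotypes overlapped, and the log2 fold change, -0.77 ± 0.29, missed the threshold (edgeR adjusted p = 0.146).

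Tyms, thymidylate synthase, was at 35.3, 111, 47, 95.3 and 62.4 CPM in p52Ki replicates 1 to 5, against 131, 89, 99.1 and 101 CPM in WT replicates 1 to 4. p52Ki replicates 2 and 4 lay within the WT range and the other 3 below it, and the log2 fold change, -0.58 ± 0.31, missed the threshold (edgeR adjusted p = 0.314). Dut, which removes dUTP and supplies the substrate of thymidylate synthase, had a log2 fold change of -0.56 ± 0.25 and also did not pass (edgeR adjusted p = 0.22). Dtymk, the next kinase on the way to dTTP, averaged 104 ± 10.8 CPM in p52Ki and 91.4 ± 22.2 CPM in WT (log2 fold change 0.19 ± 0.19, edgeR adjusted p = 0.639). Dctd, the dCMP deaminase, was low in both genotypes, at 0 to 10.1 CPM in p52Ki and 1.66 to 6.04 CPM in WT, and its counts of 0 to 57 in p52Ki and 12 to 46 in WT leave an SE of 1.32 on the log2 scale.

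**Figure D2:**
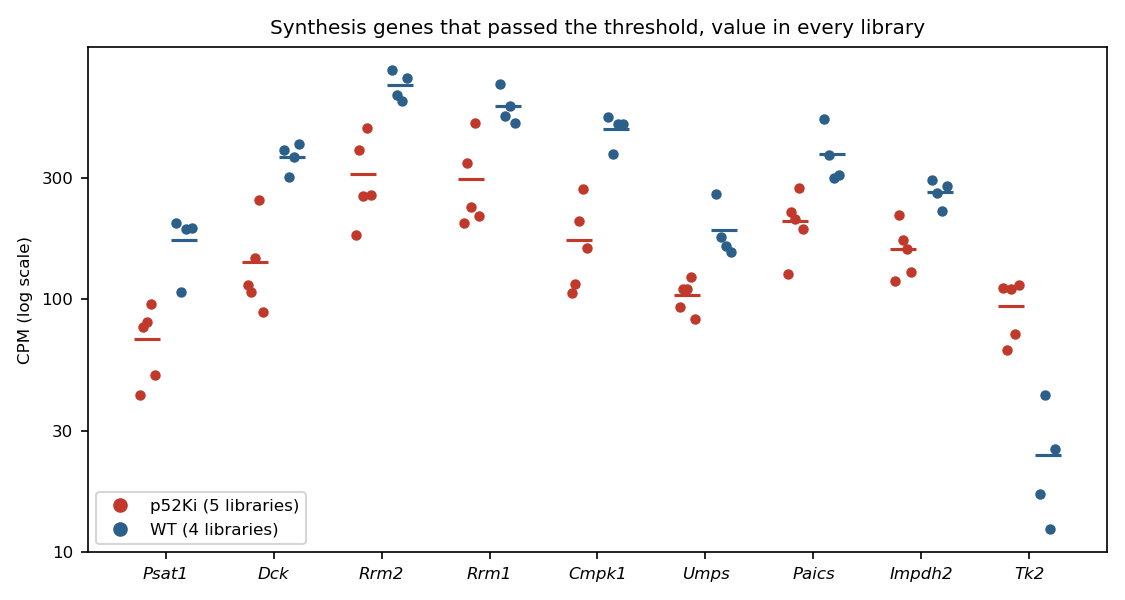
CPM on a log scale in every library for the 9 genes that passed the threshold, p52Ki in red and WT in blue, with a bar at each mean. The genotypes do not overlap for any of the 9, and Tk2 is the gene with p52Ki above WT.

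In the pyrimidine branch, 2 of 6 genes fell (33.3%, against 4.04% of all genes tested) and 0 rose (against 4.49%). The median log2 fold change was -0.11. Cmpk1 (chromosome 4, 114959336 to 114987241), the kinase that turns UMP and CMP into diphosphates, stood at 105, 114, 203, 273 and 159 CPM in p52Ki replicates 1 to 5, against 524, 374, 492 and 492 CPM in WT replicates 1 to 4. The genotypes did not overlap, and all p52Ki values lay well below the lowest WT value. The means were 171 ± 69 CPM in p52Ki and 471 ± 65.8 CPM in WT, 2.76-fold lower in p52Ki (log2 fold change -1.46 ± 0.26, edgeR adjusted p = 0.00687), the largest fall of the 38 genes. Umps (chromosome 16, 33954782 to 33967038), which makes UMP from orotate, stood at 92.8, 109, 109, 122 and 83.2 CPM in p52Ki replicates 1 to 5, against 259, 176, 162 and 154 CPM in WT replicates 1 to 4. The groups did not overlap, and WT replicate 1 stood above the other WT libraries. The means were 103 ± 15.4 CPM in p52Ki and 188 ± 48.7 CPM in WT, a log2 fold change of -0.86 ± 0.19 (edgeR adjusted p = 0.0186), and the call ended without WT replicate 1 (adjusted p 0.0198 to 0.0524 over the 9 fits without 1 library).

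Cad, the enzyme that catalyses the first steps of pyrimidine synthesis and is their point of control, was at 59.7, 40.2, 28.3, 58.5 and 65.4 CPM in p52Ki replicates 1 to 5, against 37.3, 53.5, 62.3 and 47.5 CPM in WT replicates 1 to 4. The genotypes overlapped fully, with a log2 fold change of 0.01 ± 0.28 (edgeR adjusted p = 0.992) whose sign turned under several settings. Dhodh, the mitochondrial dehydrogenase of the pathway and the target of leflunomide, averaged 41 ± 15 CPM in p52Ki and 30.3 ± 18.8 CPM in WT (edgeR adjusted p = 0.675). The CTP synthases Ctps and Ctps2 had log2 fold changes of -0.23 ± 0.33 and 0.32 ± 0.28, and neither passed (edgeR adjusted p = 0.779 and 0.584). Whether Cmpk1 changed by more than Cad was not tested.

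Among purine genes 2 of 14 fell (14.3%, against 4.04% of all genes tested), 0 rose (against 4.49%), and the median log2 fold change was -0.33. Paics (chromosome 5, 76951307 to 76967509), which carries out successive steps of ring assembly, stood at 126, 221, 207, 274 and 188 CPM in p52Ki replicates 1 to 5, against 516, 369, 301 and 307 CPM in WT replicates 1 to 4. The genotypes did not overlap, and WT replicate 1 was again the highest. The means were 203 ± 53.8 CPM in p52Ki and 373 ± 99.8 CPM in WT, a log2 fold change of -0.88 ± 0.23 (edgeR adjusted p = 0.0333). The call was kept without WT replicate 3 or p52Ki replicate 4 and ended in the other 7 fits without 1 library (adjusted p 0.0203 to 0.0981 over the 9). Impdh2 (chromosome 9, 108560286 to 108565584), the rate-limiting enzyme of guanine nucleotide synthesis and the target of mycophenolate, stood at 118, 214, 171, 158 and 128 CPM in p52Ki replicates 1 to 5, against 294, 262, 223 and 280.2 CPM in WT replicates 1 to 4. Again all p52Ki libraries lay below all WT libraries. The means were 158 ± 38.2 CPM in p52Ki and 265 ± 30.9 CPM in WT, a log2 fold change of -0.75 ± 0.18 (edgeR adjusted p = 0.0282), and the call was kept without WT replicate 3 or p52Ki replicate 2 and ended in the other 7 fits (adjusted p 0.0175 to 0.0795 over the 9).

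Ppat, which commits PRPP to purine synthesis, was at 54.2, 33.7, 56, 46.1 and 74.3 CPM in p52Ki replicates 1 to 5, against 77.2, 73.3, 85.7 and 54.9 CPM in WT replicates 1 to 4. The groups overlapped, and the log2 fold change, -0.46 ± 0.25, missed the threshold (edgeR adjusted p = 0.313). Ppat and Paics start head to head on chromosome 5 and share 272 exon bases on opposite strands, so without strand the reads of that stretch cannot be told apart; it is 6.15% of the exon length of Ppat and 8.67% of that of Paics. Impdh1, the other IMP dehydrogenase, was at 12.2, 10.6, 12.6, 7.81 and 13.5 CPM in p52Ki replicates 1 to 5, against 0.919, 16.3, 0.427 and 3.98 CPM in WT replicates 1 to 4. In WT it had 3 to 118 counts, so it met the filter on low counts through p52Ki, where it had 51 to 84. Its log2 fold change, 1.06 ± 0.87, did not pass and is given as a description with no p.

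The other 10 purine genes did not pass, and their log2 fold changes ran from -0.45 for Prps2 to 0.41 for Aprt. Gmps, which makes GMP after Impdh2, averaged 112 ± 20.2 CPM in p52Ki and 153 ± 17.2 CPM in WT and did not overlap between genotypes (edgeR adjusted p = 0.146). Gart, Adsl and Atic, of ring assembly, and Adss, which leads to AMP, had log2 fold changes of -0.43, -0.15, -0.25 and -0.10. Pfas, also of ring assembly, stood at 0.40 with 3 of 5 p52Ki libraries above every WT library (edgeR adjusted p = 0.517). The PRPP synthetases Prps1 and Prps2 and the salvage enzyme Hprt had log2 fold changes of -0.39, -0.45 and -0.27. Only Gmps and Prps2 of these 10 had an unadjusted p under 0.05.

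In the serine and folate branch all 8 genes tested had a log2 fold change below 0, as had 48.2% of all genes tested, with a median of -0.67. Only 1 passed, as a fall (12.5%, against 4.04% of all genes tested). Folate and one-carbon genes outside the branch did not share this direction. Of 14 tested, 6 had a log2 fold change below 0 and 8 above, with a median of 0.10. Among these 14, 1 fell (7.14%, against 4.04% of all genes tested) and 0 rose (against 4.49%). Psat1 (chromosome 19, 15904678 to 15947337), the aminotransferase of serine synthesis, stood at 41.5, 77.6, 80.6, 95.6 and 49.97 CPM in p52Ki replicates 1 to 5, against 199.9, 106, 188 and 189.8 CPM in WT replicates 1 to 4. All p52Ki libraries lay below all WT libraries, of which replicate 2 stood apart from the others. The means were 69.1 ± 22.5 CPM in p52Ki and 171 ± 43.4 CPM in WT, 2.48-fold lower in p52Ki (log2 fold change -1.31 ± 0.27, edgeR adjusted p = 0.0144). Phgdh, the first enzyme of the same pathway, was at 225, 447, 301, 449 and 286 CPM in p52Ki replicates 1 to 5, against 506, 331, 349 and 411 CPM in WT replicates 1 to 4. The genotypes overlapped, and its log2 fold change, -0.22 ± 0.22, missed the threshold (edgeR adjusted p = 0.628). Psph, which completes serine, had a log2 fold change of -0.69 ± 0.31 (edgeR adjusted p = 0.235).

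Shmt2, which takes a carbon from serine in mitochondria, was at 145, 281, 149.5, 210.4 and 214 CPM in p52Ki replicates 1 to 5, against 331, 274, 355 and 307 CPM in WT replicates 1 to 4. p52Ki replicate 2 lay just inside the WT range and the other 4 below it, with a log2 fold change of -0.66 ± 0.20 that did not pass (edgeR adjusted p = 0.06). It passed with DESeq2, limma-voom, limma-trend, after correction for GC content and length, and without p52Ki replicate 2. Mthfd2, the mitochondrial dehydrogenase that follows it and is high in dividing cells, was at 24.4, 97.5, 61.7, 81.5 and 74.1 CPM in p52Ki replicates 1 to 5, against 145, 137, 97.7 and 154 CPM in WT replicates 1 to 4. The groups did not overlap, but p52Ki replicate 2 nearly reached WT replicate 3, and the log2 fold change of -0.98 ± 0.32 passed only with DESeq2 (edgeR adjusted p = 0.0885). Mthfd1l, the mitochondrial synthetase that releases formate, averaged 51.6 ± 20.1 CPM in p52Ki and 97.8 ± 24 CPM in WT (edgeR adjusted p = 0.103). The cytosolic enzymes Mthfd1 and Shmt1 had log2 fold changes of -0.25 ± 0.31 and -0.23 ± 0.35 (edgeR adjusted p = 0.719 and 0.781). Mthfd2l, not tested, had 17 counts in p52Ki replicate 4 and 0 in the other 8 libraries.

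Many steps have paired enzymes, and for 7 pairs it was tested whether the log2 ratio of their CPM differed between genotypes (exact two-sided permutation over 126 splits, smallest p 0.00794, adjusted over the 7 pairs). None passed the adjusted threshold, and an unadjusted p under 0.05 was found for Tk1 over Tk2 and Rrm2 over Rrm2b, leaving aside the pair of Impdh2 and Impdh1. That pair is among the 7 of the adjustment, so the adjusted values of the other pairs depend on it. A pair that is alone at the smallest p adjusts to 0.0556. No pair could therefore pass by itself, and the lack of a pass does not show equal ratios. The log2 ratio of Tk1 over Tk2 was -1.02, 0.96, -0.88, 0.76 and -0.32 in p52Ki replicates 1 to 5, against 3.23, 1.30, 3.35 and 3.06 in WT replicates 1 to 4. All p52Ki libraries lay below all WT libraries, a difference of -2.84 (exact permutation p = 0.00794, adjusted 0.0556). The log2 ratio of Rrm2 over Rrm2b was 0.40, 2.19, 0.79, 2.69 and 1.76 in p52Ki, against 2.93, 2.70, 2.80 and 2.76 in WT. The WT values lay close together and the p52Ki values spread widely below them, up to replicate 4 just under the lowest WT value, a difference of -1.23 (exact permutation p = 0.0397, adjusted 0.0926). The log2 ratio of Impdh2 over Impdh1 was 3.22, 4.27, 3.71, 4.25 and 3.20 in p52Ki, against 7.70, 3.96, 7.91 and 5.97 in WT, whose replicates 1, 3 and 4 had 3 to 30 counts of Impdh1. The difference was -2.66, with WT replicate 2 inside the p52Ki range, and it is given as a description with no p, since Impdh1 met the filter on low counts through p52Ki. For Shmt2 over Shmt1, Mthfd1l over Mthfd1, Prps1 over Prps2 and Ctps over Ctps2 the differences were -0.37, -0.65, -0.12 and -0.48, with adjusted exact permutation p from 0.264 to 0.96. Mthfd2 over Mthfd2l was not tested, since Mthfd2l was not in the filtered table.

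**Figure D3:**
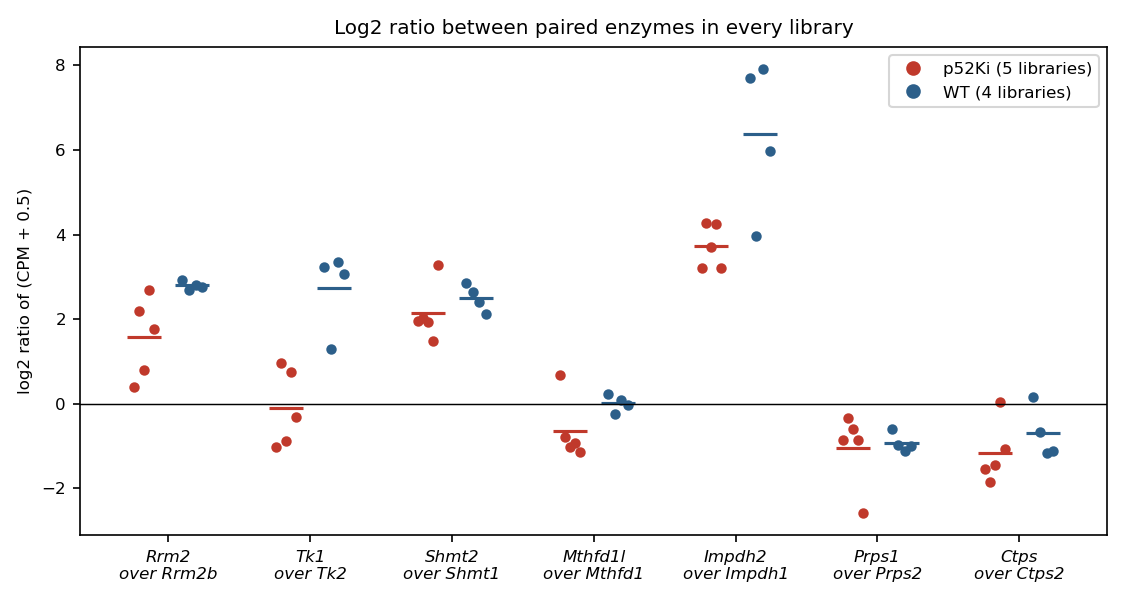
Log2 ratio of CPM + 0.5 between the paired enzymes in every library, p52Ki in red and WT in blue, with a bar at each mean. For Tk1 over Tk2 the p52Ki libraries run from -1.02 to 0.96 and the WT libraries from 1.30 to 3.35.

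Per length of exon, as CPM per kilobase, Phgdh had the highest mean of the 39 genes in p52Ki and Rrm2 in WT. The length is that of all annotated exons of a gene merged, from 1289 bases for Hprt to 11012 for Rrm1. The ranking therefore depends on the annotation. Phgdh was at 137 ± 40.7 in p52Ki and 161 ± 31.7 in WT, and Rrm2 at 112 ± 42.8 in p52Ki and 252 ± 33.2 in WT, so in p52Ki these lay within each other's spread. In WT they were followed by Cmpk1, Paics and Shmt2, at 138 ± 19.2, 119 ± 31.8 and 102 ± 11.1 CPM per kilobase. Cad was at 6.16 ± 1.9 in p52Ki and 6.13 ± 1.28 in WT, and Ppat at 12 ± 3.36 in p52Ki and 16.5 ± 2.94 in WT. Tk2 stood at 26.2 ± 6.74 in p52Ki and 6.73 ± 3.62 in WT, and Tk1 at 17.3 ± 6.37 in p52Ki and 29.4 ± 9.35 in WT.

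The 9 libraries also differed among themselves. Of the 8 genes that fell, 7 were highest within p52Ki in replicate 4 and 6 lowest in replicate 1. Summed over the 39 genes, the level was 3191, 4696, 3729, 5019 and 3438 CPM in p52Ki replicates 1 to 5, against 6909.9, 5695, 5958 and 6332 CPM in WT replicates 1 to 4. Genes of the cell cycle followed the same order. The summed level of 24 S phase genes was 2717, 4338, 3618, 5372 and 2972 CPM in p52Ki, against 8411, 6891, 7177 and 7317 CPM in WT, and that of 20 G2 and M phase genes was 1736, 3372, 2396, 5132 and 2165 CPM in p52Ki, against 8179, 6724, 6815 and 7470.5 CPM in WT. Both sums rank the p52Ki libraries as replicate 4, 2, 3, 5 and 1, and the sum of the 39 genes ranks them in that order too. Falls were called for 14 of 24 S phase genes (58.3%) and 17 of 20 G2 and M phase genes (85.0%), against 4.04% of all genes tested, with 0 rises in either list, against 4.49%, and medians of -0.89 and -1.28 in log2 fold change. The part of the cell cycle in the falls of the synthesis genes was not tested.

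**Figure D4:**
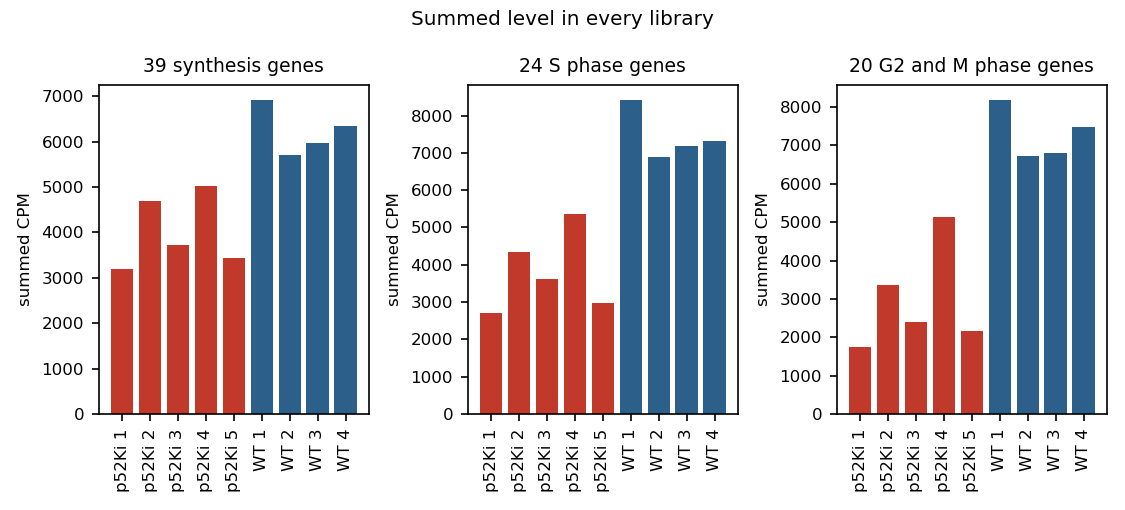
Summed CPM in every library of the 39 synthesis genes (left), 24 S phase genes (middle) and 20 G2 and M phase genes (right), p52Ki in red and WT in blue. In each panel every p52Ki library is lower than every WT library, and p52Ki replicate 4 is the highest and replicate 1 the lowest of the p52Ki libraries.

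Around these genes, 92 others of nucleotide and one-carbon metabolism were examined, from lists drawn up by function, and 67 of them were tested. Of the 67, 10 fell (14.9%, against 4.04% of all genes tested) and 2 rose (2.99%, against 4.49%). Nucleotide and nucleoside breakdown held the most falls, with 5 of 19 tested degradation genes lower (26.3%) and 0 higher. Ada, which deaminates adenosine, stood at 109, 191, 205, 328 and 184 CPM in p52Ki replicates 1 to 5, against 554, 394, 479 and 641 CPM in WT replicates 1 to 4. Pnp, which cleaves inosine and guanosine, averaged 39 ± 11.3 CPM in p52Ki and 97.8 ± 26.9 CPM in WT, and Nt5e, the surface enzyme CD73 that makes adenosine from AMP, averaged 27.2 ± 14.7 CPM in p52Ki and 85.6 ± 4.35 CPM in WT. The genotypes did not overlap in any of these 3, with log2 fold changes of -1.35 ± 0.26, -1.33 ± 0.27 and -1.65 ± 0.35 (edgeR adjusted p = 0.0108, 0.013 and 0.0161). Nt5c3b, a nucleotidase, and Itpa, which clears inosine triphosphate, changed by -0.98 ± 0.22 and -0.89 ± 0.25 (edgeR adjusted p = 0.0185 and 0.0496). Pnp shares 22.05% of its 50-base words with its neighbour Pnp2 and other loci and Itpa shares 19.69% with its pseudogene, so their levels are uncertain.

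Of 11 tested genes of the methionine cycle and polyamine synthesis, 1 fell (9.09%, against 4.04% of all genes tested), Sms, the spermine synthase (-0.76 ± 0.20, edgeR adjusted p = 0.0335). Of 20 tested salvage enzymes and nucleotide kinases, 3 fell (15%, against 4.04% of all genes tested) and 2 rose (10%, against 4.49%). Among those that fell, Uprt and Prps1l3 changed by -1.92 and -0.89 (edgeR adjusted p = 0.0466 and 0.0266). Uckl1, a uridine kinase-like gene, averaged 144 ± 19.9 CPM in p52Ki and 61.6 ± 5.87 CPM in WT (log2 fold change 1.23 ± 0.17, edgeR adjusted p = 0.00253). Cmpk2, a mitochondrial UMP and CMP kinase that interferon induces, was at 99, 53.3, 49.6, 43.5 and 44.8 CPM in p52Ki replicates 1 to 5, against 0, 15.2, 6.83 and 4.38 CPM in WT replicates 1 to 4, with p52Ki replicate 1 the highest. It had 0 to 110 counts in WT and 206 to 682 in p52Ki, so it met the filter on low counts through p52Ki. Its log2 fold change, 3.13 ± 0.82, is therefore given as a description with no p, although the fit counts it among the rises given here and above. Of 3 tested nucleoside transporters 0 passed with edgeR, DESeq2, limma-voom or limma-trend, and 0 had an unadjusted p under 0.05 in edgeR. Sms shares 17.48% of its 50-base words with pseudogenes and other loci and Prps1l3 19.75% with Prps1 and another locus, so their levels are uncertain too. Leaving out 1 library ended the call of Sms in 8 of 9 fits, the calls of Uprt, Prps1l3 and Itpa in 7, and that of Nt5c3b in 3.

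RefSeq promoters of GRCm38.p6 were matched for 36 of the 39 genes, all but Dhodh, Pfas and Rrm2b, and searched over the 250 bases upstream of each start on both strands. CCAAT was found for 15 of 36 (41.7%), against 33.8% of 32851 promoters of the same length. It was found for 4 of the 8 genes that fell, and the other genes with it did not pass. Among the 4 are Rrm1, with a pair of matches 41 and 87 bases before the start, and Rrm2, with 1 match at 46 bases. CCGGAAG was found for 6 of 36 (16.7%), against 6.91% of 32851 promoters. The 6 are Tk2, 6 bases before its start, and Dtymk, Ppat, Prps1, Shmt2 and Tyms, which did not pass. It was found for 0 of the 8 genes that fell. With 8 genes and a share of 6.91% over all promoters, that is no contrast with Tk2. CACGTG, the E-box that MYC can bind, was found for 5 of 36 (13.9%), against 6.02% of 32851 promoters. The 5 are Impdh2 and Paics, which fell, and Atic, Dtymk and Tyms, which did not pass. TTTCCCGC, a form of the E2F site, was found only for Ppat, and TTTGGCGC and the NF-kB consensus for 0 of 36, against 0.895%, 0.417% and 3.9% of all promoters. Genes with several starts count as holding a motif when any of them does, while each of the 32851 promoters is counted by itself. The shares of genes and of promoters are therefore not counted alike. A match is a description of the letters and no match concerns this window only.

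Copies and overlaps limit some of these values. The share of 50-base words found also in transcripts of other genes was 47.78% for Phgdh and 39.32% for Impdh2, whose reads can be shared with pseudogenes, 15.48% for Gart, 10.71% for Rrm2b and under 10% for the other 35 genes. The pseudogene Impdh2-ps was counted at 1.84 to 4.06 CPM in p52Ki and 4.29 to 4.98 CPM in WT.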

How the data were processed

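Per the labels' protocols, RNA from 5 p52Ki and 4 WT samples was converted to cDNA with SMART-Seq v2 (17 PCR cycles), which does not mark strand, and sequenced in pairs of 151 bases. Alignment to GRCm38 and counting are credited, per the submitters' processing notes, to HISAT2 2.1.0, SAMtools 1.8 and Subread 1.6.2 (featureCounts). The sources used here do not give the annotation release or the strand setting. 2 tables were deposited by the authors, one of unnormalized counts (55536 genes) and one of log2 CPM values (12849 genes). Those log2 values equalled edgeR's log2 CPM of the deposited counts (TMM, prior count 2) within 4.97e-14.

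Counts were tested in R 4.3.3 with edgeR 4.0.16 (filterByExpr, TMM, robust quasi-likelihood F test of p52Ki over WT in all 9 libraries, no covariate), adjusted by Benjamini-Hochberg over 12849 genes with a threshold of 0.05. Each SE is the size of the log2 fold change divided by the square root of its F. CPM use TMM-scaled library sizes. Ratios of paired genes used log2 of CPM + 0.5 and exact permutation. Positions, exon lengths and GC content come from GENCODE M21 (GRCm38). In counts simulated for this comparison (12204 genes), the test found 22.9% of 2-fold and 55.4% of 4-fold changes, with 3.95% of calls false. Alternatives were DESeq2 size factors, no filter, at least 10 CPM in 4 libraries, the replicate number as a block, GC and length offsets, each library left out, DESeq2 1.42.0, limma 3.58.1 (voom with quality weights, and trend on the deposited log2 values), and, for ratios, a pseudocount of 1 CPM. Genes given in full are the genes past the threshold, up to 4 of smallest p per branch, both genes of a pair with one of these, and Rrm2, Tyms, Cad, Impdh2, Ppat, Phgdh, Shmt2 and Mthfd2 whatever their result; of other lists, the genes past the threshold, of which some are not reported here. The 39 genes and the other lists were chosen with earlier results of these data known. Reads carry no molecular identifiers, so duplicates are not independent molecules.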

Additional observations from a re-analysis of the deposited data

Results flagged for a closer look

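Values of single libraries that stood apart from the rest of their genotype, by Dixon's 95% criterion, numbered 11 in 124 groups examined, and chance flags about 1 in 20 groups. Among the synthesis genes, Psat1 was at 106 CPM in WT replicate 2, below the other WT libraries at 188 to 199.9 CPM, so the lowest WT library is also the nearest to p52Ki. Adsl was at 199 CPM in p52Ki replicate 2, above the others at 101 to 124 CPM. Dhodh was at 66.8 CPM in the same library, above the others at 28.6 to 39.5 CPM. Dctd was at 10.1 CPM there, against 0 to 2.91 CPM in the other p52Ki libraries. Mthfd2l was at 2.60 CPM in p52Ki replicate 4 and at 0 in the others.

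Among the paired enzymes, the log2 ratio of Tk1 over Tk2 was 1.30 in WT replicate 2, below the other WT libraries at 3.06 to 3.35. The log2 ratio of Mthfd1l over Mthfd1 was 0.68 in p52Ki replicate 1, above the others at -1.14 to -0.79. The log2 ratio of Prps1 over Prps2 was -2.58 in p52Ki replicate 5, below the others at -0.86 to -0.33. Among the other pathway genes, Cmpk2 was at 99.0 CPM in p52Ki replicate 1, above the others at 43.5 to 53.3 CPM. Sms was at 175 CPM in WT replicate 4, above the other WT libraries at 101 to 112 CPM. Nt5e was at 92.1 CPM in WT replicate 4, above the other WT libraries at 82.8 to 83.9 CPM.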

How the results depend on the processing

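Over the 9 fits without 1 library, the number of the 38 genes called lower was 4 to 7, and 1 was called higher in each (1 to 1). By branch, calls lower were 1 to 2 for folate and serine, 2 to 3 for deoxynucleotides with 1 to 1 higher, 1 to 2 for pyrimidines and 0 to 2 for purines. Over the other pathway genes they were 4 to 7 lower and 1 to 3 higher. Psat1, Dck, Rrm2, Cmpk1 and Tk2 were called in all 9. The difference in total counts was -2008041 to -1469168.5. Of the 7 pairs 0 to 0 passed, but fewer libraries allow fewer splits and so a larger smallest p. A pair could not pass by itself in these fits, so that count decides nothing.

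All 8 calls lower and Tk2 were kept with DESeq2 size factors, no filter, the stricter filter, GC and length offsets, DESeq2, limma-voom and limma-trend. Folate and serine calls lower were 2 with GC and length offsets, limma-voom and limma-trend, and 3 with DESeq2. Other pathway calls were 6 lower with no filter, where the median log2 fold change of all genes was 0.18 against 0.03, and 4 higher with DESeq2 and with limma-trend. Over all genes, 1766 were called with DESeq2 against 1096 with edgeR, and GC and length offsets moved the share called higher to 47.2%, against 52.6%. The cause was not tested.

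Over all genes tested, samples with the same replicate number did not deviate together (correlations -0.0420 to -0.00898). The labels do not say that the numbers pair samples, and correlations over all genes cannot exclude a pairing that touches few of them. With the number as a block, where p52Ki replicate 5 has no partner, 129 genes were called over all; of the 8 lower, 2 were kept (Dck and Cmpk1), both with and without GC and length offsets. By branch, calls lower were 1 for deoxynucleotides, 1 for pyrimidines, 0 for purines and 0 for folate and serine, and 0 were called higher. Other pathway calls were 0 lower and 1 higher. The blocked difference in total counts was -1469168.5 (exact permutation p = 0.125, the smallest that the blocked test can give, so it could not pass).

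Signs turned for genes near 0. The log2 fold change of Cad was -0.14 with the block, -0.17 with GC and length offsets, -0.36 with both, -0.15 with limma-voom, -0.03 with limma-trend, and -0.11, -0.06, -0.03 and -0.08 without WT replicate 1 and p52Ki replicates 1, 4 and 5. Rrm2b was at -0.07 and -0.10 without p52Ki replicates 1 and 3 and -0.01 with limma-trend. Without 1 library Ctps ran from -0.39 to 0.13 (without WT replicate 1), Adss from -0.18 to 0.07 (without WT replicate 2), and the difference for Prps1 over Prps2 from -0.30 to 0.27 (without p52Ki replicate 5). With the block the last of these was 0.27. Dctd, Impdh1 and Mthfd2l had low counts, and no change in them was detectable.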

Other observations

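Of 14 transcription factors examined that are known to act on these pathways, 13 were tested and 0 passed with edgeR, limma-voom or limma-trend, while 1 passed with DESeq2 and 1 had an unadjusted p under 0.05 in edgeR. In both cases that gene is E2f4, a repressor of cell cycle genes, with a log2 fold change of -0.93 ± 0.29 (edgeR adjusted p = 0.0687). Myc, which drives many synthesis genes, averaged 157 ± 51.5 CPM in p52Ki and 113 ± 9 CPM in WT (SD, n = 5 and 4), with log2 fold change 0.48 ± 0.23 (edgeR adjusted p = 0.248). Atf4, which controls serine synthesis genes such as Psat1 and Phgdh, averaged 189.5 ± 22.4 CPM in p52Ki and 175 ± 16.5 CPM in WT, a log2 fold change of 0.12 ± 0.14 (edgeR adjusted p = 0.716). Atf5 and E2f8, an E2F that represses at the end of S phase, had log2 fold changes of -0.97 ± 0.45 and -1.24 ± 0.58 and did not pass (edgeR adjusted p = 0.238 and 0.243). Trp53, which encodes p53, had a log2 fold change of -0.23 ± 0.15 (edgeR adjusted p = 0.426). E2f4, Myc, Atf4, Atf5, E2f8 and Trp53 were picked from the list after their values were seen.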
